A study of Rattus norvegicus with 6 samples.

Results

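The genes described here are 4 genes of white blood cells, chosen by Ensembl rat gene ID: Ptprc (ENSRNOG00000000655), Cd4 (ENSRNOG00000016294), Cd8a (ENSRNOG00000007178) and Prf1 (ENSRNOG00000000562). All 4 were present among the 22526 genes of the deposited expression table, and all 4 were among the 19515 genes tested. The symbols come from the selection of the genes, since the deposited table carries IDs only. RNA was measured in the injured spinal cord of 6 adult female rats of the Sprague-Dawley strain, 2 weeks after the injury. In 3 rats the lesion held a scaffold of decellularized optic nerve, a nerve from which the cells had been removed (DON). In the other 3 it held such a scaffold combined with Apt19S (A-DON), an aptamer; aptamers are short strands of nucleic acid whose folded shape binds a chosen target. All 6 rats were thus injured and implanted, and DON is the reference group. The sources used here do not give the level and kind of injury or the piece of cord taken.

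Ptprc encodes CD45, a transmembrane tyrosine phosphatase on the surface of all nucleated blood cells, which sets the activity of Src-family kinases in antigen receptor signalling. Microglia, the resident macrophages of the central nervous system, carry less of it than macrophages that enter from blood. CD4 is the co-receptor of helper T cells, which binds MHC class II, and in the rat it is also carried by macrophages and monocytes and is induced on activated microglia. CD8 alpha is a chain of the co-receptor of cytotoxic T cells, which binds MHC class I, and in the rat it is also found on natural killer cells and on some activated macrophages. Perforin, the product of Prf1, forms pores in target cell membranes through which granzymes enter, and is made mainly by natural killer cells and cytotoxic T cells. After spinal cord injury all of these cells can be present in the lesion, so none of the 4 transcripts alone identifies a cell type in whole tissue.

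RefSeq promoter sequences (build GRCr8) were at hand for Ptprc, Cd8a and Prf1, and Cd4 has none here. They are shown because the 3 genes were all lower on average in A-DON, and the 250 bases before the annotated start are where shared control elements would be looked for. The windows lie at chr13:52259747-52259996 (minus strand) for Ptprc, chr4:104923866-104924115 (plus strand) for Cd8a and chr20:29788790-29789039 (plus strand) for Prf1. Each is written 5′ to 3′ along the gene, and capitals mark matches on either strand to 3 short motifs of blood cell factors. For the ETS family the motif searched was GAGGAA, for RUNX factors it was TGTGGT, and for factors of the GATA type it was AGATAA.
Ptprc: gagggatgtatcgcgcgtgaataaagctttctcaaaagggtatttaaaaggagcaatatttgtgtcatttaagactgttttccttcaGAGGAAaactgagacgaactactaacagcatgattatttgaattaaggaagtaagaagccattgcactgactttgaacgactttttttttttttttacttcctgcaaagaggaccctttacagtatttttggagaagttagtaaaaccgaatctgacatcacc
Cd8a: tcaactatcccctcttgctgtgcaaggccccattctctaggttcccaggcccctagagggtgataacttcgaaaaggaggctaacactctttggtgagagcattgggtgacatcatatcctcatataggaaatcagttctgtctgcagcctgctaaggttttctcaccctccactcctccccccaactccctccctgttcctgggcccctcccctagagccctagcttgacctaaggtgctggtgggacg
Prf1: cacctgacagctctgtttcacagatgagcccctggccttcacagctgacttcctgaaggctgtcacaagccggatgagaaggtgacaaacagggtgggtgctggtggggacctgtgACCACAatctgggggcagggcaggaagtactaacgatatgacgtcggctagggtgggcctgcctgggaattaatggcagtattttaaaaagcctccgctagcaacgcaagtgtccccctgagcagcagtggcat
The Ptprc window held GAGGAA once, at bases -163 to -158 from the annotated start, a motif found in 23.3% of 33469 rat windows of this length. The Prf1 window held TGTGGT once on the other strand, at bases -134 to -129, and 14.5% of windows hold that motif. No match to the 3 motifs lay in the Cd8a window, and AGATAA, which 10.3% of windows hold, lay in none of the 3. G and C made up 36% of the Ptprc window, 54.4% of that of Cd8a and 56.0% of that of Prf1, against a median of 51.2% over all windows. The 3 windows thus shared none of these 3 exact strings, which describes the letters only. Other forms of the sites of these factors were not searched, so their presence or absence in the windows is not described.

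Each library held 24961512 to 31189687 reads, worked out from the deposited values as described in the account of the processing. Levels are given below as normalized counts, that is, reads divided by the size factor of the library, which ran from 0.927 to 1.05. Every A-DON library had fewer reads in total than every DON library. The libraries did not fall into 2 tight groups. Over all genes, A-DON replicates 1 and 3 differed with a chi-square per degree of freedom of 21.9, the smallest of the 15 pairs of libraries and still far above sampling noise. A-DON replicate 2 differed from these by 172 and 148, and from DON replicates 1, 2 and 3 by 271, 158 and 190. It was thus nearer to each DON library than A-DON replicates 1 and 3 were, at 447 to 713. DON replicate 1 differed from DON replicates 2 and 3 by 168 and 172, where those differed by 53.6, so it stood about as far from its group as A-DON replicate 2 did. Among the 4 genes it stood apart most for Cd8a. Results are therefore also given without these libraries. Lists of marker genes for T, B, natural killer, myeloid and neural cells could not be read, because 0 of the 22526 IDs were found in the gene table at hand. The labelled tissue was accordingly not checked against markers, and the part of other cell types in the differences below was not tested.

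The mean level of all 4 genes was lower in A-DON cords than in DON cords. Ptprc and Cd4 fell, each by about the same amount: 6.44-fold for Ptprc (95% confidence interval 1.68 to 24.7) and 6.39-fold for Cd4 (1.79 to 22.8), n = 3 rats per group. Cd8a and Prf1, the 2 genes tied to cytotoxic cells, did not pass the test, with fitted differences of 13.7-fold (1.78 to 105) and 12.8-fold (1.22 to 136). The fitted value of Prf1 is set largely by the 1 added before the log, because 2 A-DON libraries had 0 reads. Between group means of normalized counts the differences were 3.99-fold for Ptprc, 4.23-fold for Cd4, 10.8-fold for Cd8a and 4.68-fold for Prf1. Counted over the 4 genes, 2 fell by limma's test (Benjamini-Hochberg adjusted p under 0.05 over all tested genes), where 16.6% of all tested genes were called lower in A-DON and 35.5% in either direction. The median log2 fold change was -3.18 over the 4 genes and -0.02 over all tested genes. The 4 genes were chosen with earlier results of these data known, so these comparisons with all tested genes are description only. In whole tissue, fewer cells of a type and less RNA of a gene per cell cannot be told apart.

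**Figure D1:**
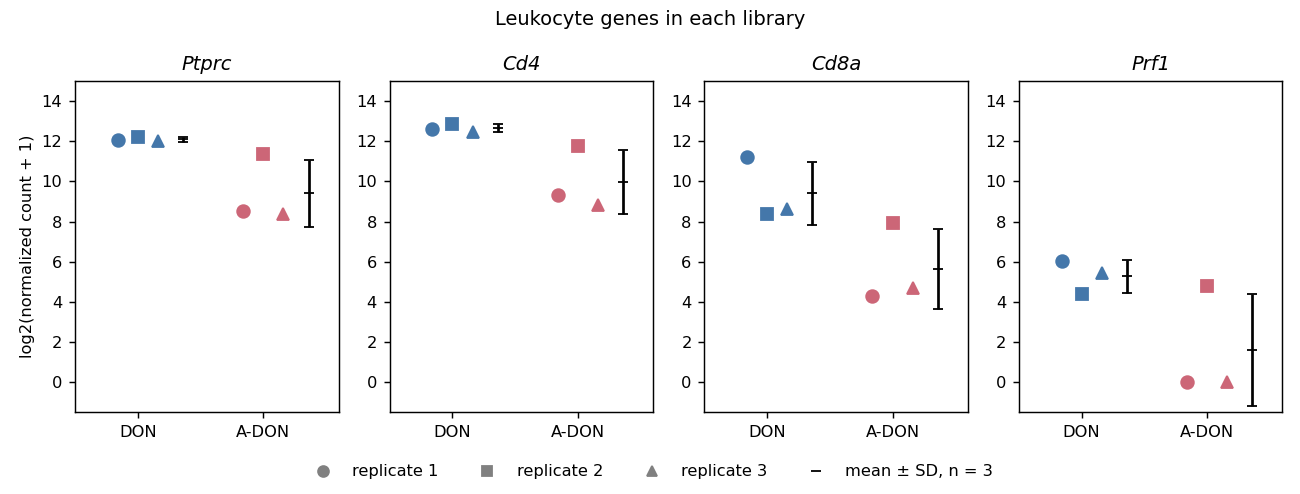
Level of each gene in each library as log2(normalized count + 1), with DON in blue, A-DON in red, marker shape for the replicate, and black bars for the mean ± SD (n = 3). A-DON replicate 2 (red square) is the highest A-DON library for every gene, and DON replicate 1 (blue circle) is the highest DON library for Cd8a and Prf1.

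Ptprc, the marker of leukocytes as a whole, was even across the DON rats and uneven across the A-DON rats. DON replicates 1, 2 and 3 had 4304, 4779 and 4084 normalized counts, and A-DON replicates 1, 2 and 3 had 365.8, 2607 and 328.3. All A-DON libraries lay below all DON libraries, but A-DON replicate 2 held 0.594 times the DON mean, while replicates 1 and 3 were close to each other (a ratio of 1.11). The group means were 4389 ± 355 in DON and 1100 ± 1305 in A-DON (SD, n = 3 each), and the log2 fold change of -2.69 (standard error 0.80) had a limma adjusted p of 0.0444.

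Cd4, the co-receptor for MHC class II, followed Ptprc library by library. It had 6178, 7511 and 5682 normalized counts in DON replicates 1, 2 and 3. In A-DON replicates 1, 2 and 3 it had 648.9, 3483 and 445.9. The groups did not overlap, and A-DON replicate 2 was again the nearest to DON, at 0.539 times the DON mean. The means were 6457 ± 946 in DON and 1526 ± 1698 in A-DON (SD, n = 3 each), and the log2 fold change of -2.68 (standard error 0.75) had a limma adjusted p of 0.0392.

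Both of these calls sat close to the threshold of 0.05. When A-DON replicate 2 was left out, log2 fold changes were -3.66 for Ptprc and -3.57 for Cd4 (12.6-fold and 11.8-fold between group means), with limma adjusted p of 5.21e-04 and 6.45e-04, where 25.6% of tested genes were called lower. Without any one of the other 5 libraries neither gene passed (limma adjusted p of 0.0970 to 0.143 for Ptprc and 0.0885 to 0.131 for Cd4), and log2 fold changes were -2.74 to -2.16 and -2.76 to -2.09. In those fits few genes were called lower at all: 6.6%, 5.51% and 1.24% without DON replicates 1, 2 and 3, 0.0157% without A-DON replicate 1 and 0% without A-DON replicate 3. Other processing also moved the calls. Ptprc missed the threshold with equal library totals (limma adjusted p = 0.0527; 12.4% of genes called lower), and both genes missed it without trend and robust moderation (0.0590 and 0.0527; 13.1%).

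Cd8a, the co-receptor chain for MHC class I, varied within both groups. DON replicate 1 had 2373 normalized counts, against 326.1 and 400.1 in DON replicates 2 and 3. In A-DON replicates 1, 2 and 3 the values were 18.3, 242.7 and 24.7. All A-DON libraries lay below all DON libraries, but A-DON replicate 2 came close to DON replicate 2, which was 1.34 times higher. The means were 1033 ± 1161 in DON and 95.3 ± 128 in A-DON (SD, n = 3 each), and the log2 fold change of -3.78 (standard error 1.21) had a limma adjusted p of 0.0537. DON replicate 1 exceeded the mean of the other DON rats 6.54-fold for Cd8a, 2.05-fold for Prf1, and was at 0.971 and 0.936 times that mean for Ptprc and Cd4. Without DON replicate 1 the log2 fold change of Cd8a was -2.87 (limma adjusted p = 0.126). Without A-DON replicate 2 it was -4.93 (limma adjusted p = 0.00931). Cd8a did not pass without any other single library (limma adjusted p of 0.0741 to 0.166). With quantile normalization, where 17.7% of genes were called lower, Cd8a passed (log2 fold change -3.67, limma adjusted p = 0.0432). That was the only one of 8 changes of processing in which it did.

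Prf1, the perforin gene, was the scarcest of the 4 in reads. DON replicates 1, 2 and 3 had 67, 21 and 42 reads, with exact Poisson 95% intervals of 51.9 to 85.1, 13 to 32.1 and 30.3 to 56.8. A-DON replicate 2 had 25 reads (16.2 to 36.9), and A-DON replicates 1 and 3 had 0. For these 0 counts the exact Poisson interval reaches up to 3.69 reads. The customary one-sided limit for a count of 0 is 3 reads, which is 1.04e-05% and 1.06e-05% of the reads of these libraries. All of these limits cover counting error only. In normalized counts the DON values were 63.9, 20.02 and 42.4, and A-DON replicate 2 had 27.0, so that it lay within the DON range and the groups overlapped. The means were 42.1 ± 21.9 in DON and 8.99 ± 15.6 in A-DON (SD, n = 3 each). The fitted log2 fold change of -3.68 (standard error 1.39) had a limma adjusted p of 0.0826, and with 0.1 added in place of 1 it was -5.88 (limma adjusted p = 0.0926). Prf1 reached 1 normalized count in 4 of the 6 libraries and so passed the filter of 3 libraries mainly through DON. Without A-DON replicate 2, both A-DON libraries were at 0, and Prf1 was at least 14.4-fold lower than the DON mean and at least 6.84-fold lower than the lowest DON library (3 reads per library as the floor). No p is given for that comparison, since the gene passed the filter through DON alone and the spread of the A-DON libraries was 0 by construction.

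**Figure D2:**
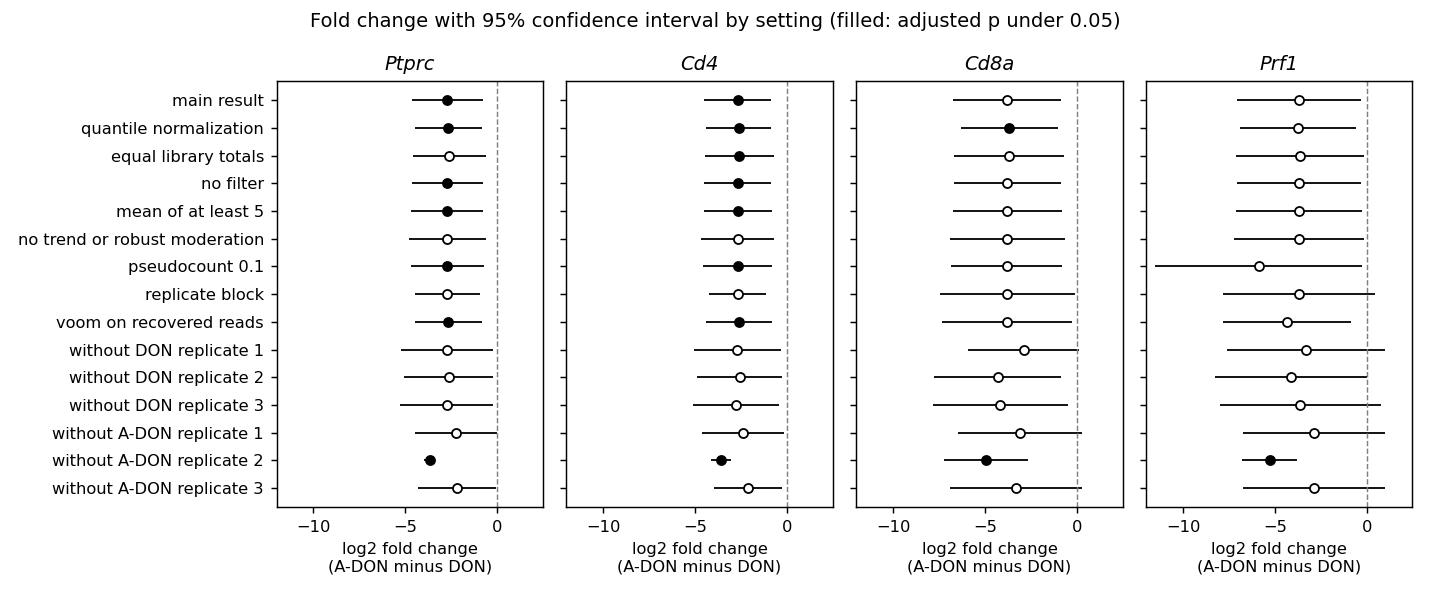
Log2 fold change of each gene (A-DON minus DON, x axis) with its 95% confidence interval from limma, under the main result and 14 alternative settings (rows), filled where the adjusted p was under 0.05. All estimates lie below 0, and all 4 genes are filled only in the fit without A-DON replicate 2. The filled marker of Prf1 there is not read as a call. In that fit Prf1 passed the filter through DON alone and had 0 reads in both A-DON libraries.

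The groups did not overlap for 3 of the 4 genes, and 27.9% of all tested genes had every A-DON library below every DON library. Placed among the 19515 tested genes, Cd8a and Prf1 had a log2 fold change exceeded in the negative direction by 107 (0.548%) and 131 (0.671%) genes, and Ptprc and Cd4 by 616 (3.16%) and 627 (3.21%). The place of Prf1 moves with the 1 added before the log. All of these places are description only, since the 4 genes were chosen with earlier results of these data known. The whole distribution was wide, with a 5th percentile of -2.38 and a 95th percentile of 2.45. Fold changes at least as low as 4-fold were fitted in 8.1% of the tested genes at any p. When libraries were scaled to equal totals, 2418 genes were called lower and 4372 higher, in place of 3232 and 3698.

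**Figure D3:**
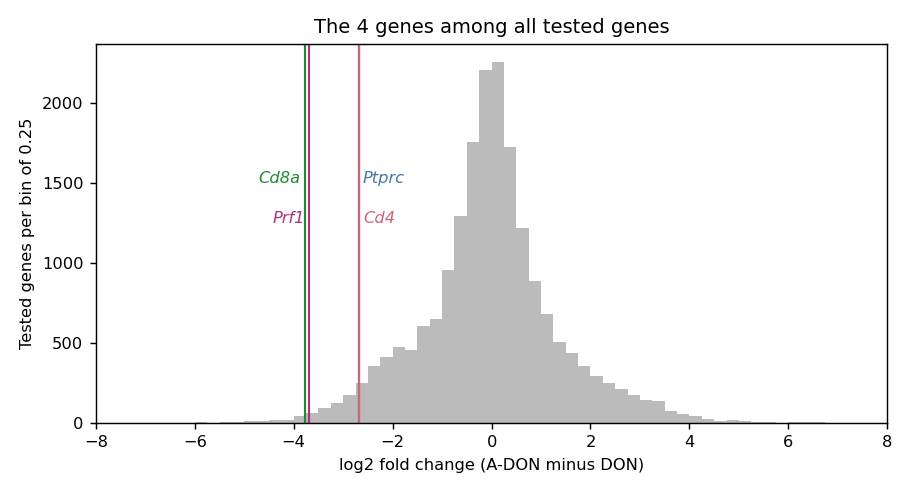
Histogram of the log2 fold change (A-DON minus DON) of the 19515 tested genes in bins of 0.25, with vertical lines at the 4 genes. Cd8a (-3.78) and Prf1 (-3.68) lie farther out in the lower tail than Ptprc (-2.69) and Cd4 (-2.68), whose lines coincide.

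Ratios between the genes within a library show which of them moved together. A ratio of normalized counts does not depend on how the library was scaled, while a log2 ratio taken after adding 1 does so where a count is low, and fully where Prf1 had 0 reads. For each 100 normalized counts of Ptprc there were 143.5, 157.2 and 139.1 of Cd4 in DON replicates 1, 2 and 3. In A-DON replicates 1, 2 and 3 there were 177.4, 133.6 and 135.8. The ratio of Cd4 to Ptprc thus stayed within a narrow range in all 6 rats while the level of both genes varied widely. Its log2 value was 0.55 ± 0.09 in DON and 0.56 ± 0.23 in A-DON (SD, n = 3 each), a difference of 0.01 (exact two-sided permutation p = 1.0).

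Cd8a relative to Ptprc was set apart by a single DON rat. For each 100 normalized counts of Ptprc, Cd8a had 55.1 in DON replicate 1, against 6.82 and 9.80 in DON replicates 2 and 3. The A-DON replicates 1, 2 and 3 had 5.0, 9.31 and 7.53, which overlap with the latter DON values. The mean difference in the log2 ratio was -1.09 with all rats (exact two-sided permutation p = 0.4) and -0.17 without DON replicate 1. Relative to Cd4, the mean difference was -1.10 with all rats and -0.17 without DON replicate 1. The larger average fold of Cd8a than of Ptprc and Cd4 therefore rested on DON replicate 1.

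Prf1 relative to Ptprc was limited by its low counts. In DON the 3 libraries together had 9.58 Prf1 reads per 1000 Ptprc reads. At that ratio A-DON replicates 1, 2 and 3 would hold 3.64, 23.1 and 3.18 Prf1 reads, and they held 0, 25 and 0. At the lowest and highest ratio of a DON library, the reads would be 1.59 to 5.64 in A-DON replicate 1 and 1.39 to 4.93 in replicate 3. The values at the common ratio, 3.64 and 3.18, lie within the exact Poisson interval of 0 to 3.69 reads around a count of 0. They lie above the one-sided limit of 3 reads, while the values at the lowest DON ratio, 1.59 and 1.39, lie below it. At the common DON ratio to Cd4, the values for A-DON replicates 1 and 3 were 4.38 and 2.93. Each library was taken alone here, and the 2 counts of 0 were not tested together. Read 1 library at a time, whether Prf1 fell more than Ptprc depends on the limit and the DON ratio chosen. These comparisons do not settle it. In A-DON replicate 2, where Ptprc was higher, the observed 25 reads lay within the 10.1 to 35.9 that the DON ratios give.

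Over the 6 pairs of genes, no ratio separated the groups. The exact two-sided permutation p ran from 0.3 to 1.0, and from 0.6 to 1.0 after Benjamini-Hochberg adjustment over the 6 pairs, in a design where 3 rats against 3 cannot go below 0.1. A p of this size does not show that the ratios were alike. Levels of different genes are not ranked here, because transcript lengths were not used.

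**Figure D4:**
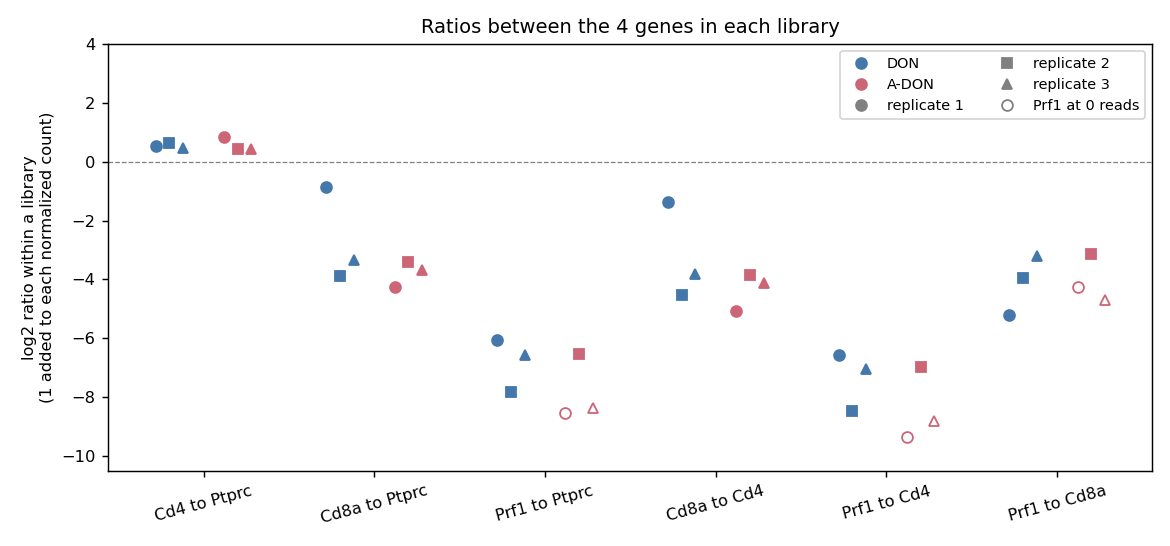
Log2 ratio of each pair of genes within a library (y axis; 1 was added to each normalized count), with DON in blue, A-DON in red, marker shape for the replicate, and open markers where Prf1 had 0 reads. Cd4 to Ptprc keeps to 0.42 to 0.83 in all libraries, and DON replicate 1 stands alone at -0.86 for Cd8a to Ptprc.

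The likeness of 2 profiles was measured as the root mean square distance over the 6 libraries between log2 values, each gene centred on its own mean. It is a description over libraries that share the group difference. Among 16826 genes compared with Ptprc, Cd4 was the 7th nearest, at a distance of 0.14, and Ptprc was the 3rd nearest to Cd4, while the median distance from Ptprc was 1.68. Cd8a and Prf1 lay at 1.10 and 0.96 from Ptprc, with ranks of 2521 and 1975. Measured from Cd8a, Prf1 was nearer (0.75, rank 100) than Ptprc (1.10, rank 534) or Cd4 (1.16, rank 663). Of the 4 genes, then, Ptprc and Cd4 formed a close pair across rats. Prf1 and Cd8a lay nearer to each other than to Ptprc or Cd4, with Cd8a at rank 194 from Prf1. The distances of Prf1 depend on the 1 added before the log, because 2 A-DON libraries had 0 reads. With 0.1 added instead, the group difference in the log2 ratio of Prf1 to Cd8a was -2.06 in place of 0.09.

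More genes lay within a fixed distance of Ptprc and Cd4 than of Cd8a and Prf1. Within a distance of 0.5 there were 507 other genes around Ptprc and 461 around Cd4, but 19 around Cd8a and 41 around Prf1. Prf1 had 0 to 67 reads per library, and Cd8a had 19 and 25 reads in A-DON replicates 1 and 3. The part of such low counts in these numbers of neighbours was not tested. The gene nearest to Ptprc was ENSRNOG00000012172, at a distance of 0.07. It had 2237, 2200 and 1913 normalized counts in DON replicates 1, 2 and 3. In A-DON replicates 1, 2 and 3 it had 169.4, 1191 and 162.2, and its log2 fold change was -2.72. The gene nearest to Cd4 was ENSRNOG00000011718, at 0.10, with a log2 fold change of -2.63. Both genes were chosen for their likeness over these same libraries. Fold changes close to those of Ptprc and Cd4 therefore follow from the choice and are no separate result. The table pairs no name with these IDs. The nearest genes to Cd8a and Prf1 lay farther off, at 0.32 and 0.26.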

How the data were processed

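Stranded mRNA-seq libraries of total cord RNA from 6 rats (3 in each group) were run on an Illumina NovaSeq, per the labels' protocols. STAR 2.5.3a, StringTie 1.3.1c, FastQC 0.11.2 and build rn6 are listed, per the submitters' processing notes, without their roles. The read counter, strand setting and annotation are not stated in those sources. The log2 values deposited by the authors ran from 0 to 19.8. After the log2 was undone and 1 taken off, 100% of values were whole multiples of 1 step per library (tolerance 0.05 reads). The inverse steps equalled size factors computed from these reads by median of ratios, so the values are log2(reads / size factor + 1).

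The groups were compared with limma 3.58.1 under R 4.3.3 (statmod 1.5.0; intensity trend, robust moderation). Genes needed 1 normalized count or more in 3 or more libraries, which left 19515, and p-values were adjusted over all of these by Benjamini-Hochberg with a threshold of 0.05. The added 1 makes fold changes of low genes too small. The fit was also run on simulated counts with 200 genes raised in A-DON, 1 setting of spread for all genes and no outlying library. That setting is unlike these data, so the run does not bear on the calls given here. Ratios were tested by exact permutation over rats. Alternatives were quantile normalization, equal totals, no filter, a mean of 5 or more, plain limma, another pseudocount (0.1), a replicate block, limma's voom on the recovered reads, and leaving out each library. The 4 genes and the lists were chosen with earlier results of these data known. Other genes were named by nearest profile, among genes averaging 10 or more normalized counts, and limited to 2 IDs for want of names. Each replicate is its own rat, by the design text. Python 3.11.15, numpy 2.4.6, pandas 2.3.3 and scipy 1.17.1 were used.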

Additional observations from a re-analysis of the deposited data

How the results depend on the processing

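All 4 genes kept a negative log2 fold change under all 14 alternatives. Ptprc lost its call with equal library totals (-2.59, limma adjusted p = 0.0527), without trend and robust moderation (-2.69, 0.0590) and with the replicate block (-2.69, 0.0749). Cd4 lost its call without trend and robust moderation (-2.68, 0.0527) and with the replicate block (-2.68, 0.0700). Cd8a passed with quantile normalization (-3.67, limma adjusted p = 0.0432). It missed the threshold with every other change of processing, such as equal library totals, voom and the replicate block (limma adjusted p of 0.0600, 0.0829 and 0.123). Leaving out 1 library gave log2 fold changes of -3.66 to -2.16 (Ptprc), -3.57 to -2.09 (Cd4), -4.93 to -2.87 (Cd8a) and -5.28 to -2.88 (Prf1). Fits without a library have fewer rats. Genes past the threshold numbered 6930, 0 with the replicate block (7601 at an unadjusted limma p under 0.05), and 0 (without A-DON replicate 3) to 9176 (without A-DON replicate 2) on leaving out a library. The block rests on the rats' numbers alone. Deviations from the group mean correlated across genes with r = -0.17, -0.24 and -0.08 in same-numbered rats. Between rats of unlike number r was -0.06 to 0.22. With 3 rats per group these deviations depend on one another, so the values cannot decide whether same-numbered rats were paired. With a pseudocount of 0.1 the differences in log2 ratio of Prf1 to Ptprc, Cd4 and Cd8a were -3.19, -3.20 and -2.06 in place of -0.996, -1.01 and 0.09, because Prf1 had 0 reads in 2 libraries. Leaving out 1 library gave -1.63 to -0.62, -1.71 to -0.52 and -0.44 to 0.55 for these 3, -0.12 to 0.08 for Cd4 to Ptprc, -1.68 to -0.17 for Cd8a to Ptprc and -1.74 to -0.17 for Cd8a to Cd4.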
